A study of Homo sapiens with 4 samples.

Results

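The 59 replication-dependent histone genes described here are the genes of the RNA-seq count table whose symbols mark the clustered H1, H2A, H2B, H3 and H4 genes: H1-1 to H1-6 and any symbol made of H2AC, H2BC, H3C or H4C and a number. They were 59 of 15562 genes in the table, and comprised 6 H1, 15 H2A, 15 H2B, 11 H3 and 12 H4 genes. The cells were H1975, an established line from a human lung adenocarcinoma, labelled wild type. They were grown in RPMI medium with serum, spent 24 h either in normoxia or in a hypoxic incubator (1% O2, 5% CO2, 94% N2), and gave 1 RNA-seq library per condition. Each ratio below therefore compares 2 libraries, carries a 95% interval for counting error only, and was not tested against the spread between cultures. Because RNA was taken from whole cultures, a change in the share of cells that hold a transcript and a change in its amount per cell cannot be told apart.

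Replication-dependent histone genes supply the histones that package new DNA, and their messages normally accumulate in S phase and are destroyed when DNA synthesis stops. Most lack introns, and their messages end in a conserved stem-loop, bound by the protein SLBP, in place of a poly(A) tail. Some of these genes can also give longer, polyadenylated messages, which cells make when they leave the cycle or differentiate. The library kit named in the labels is one that selects RNA by its poly(A) tail, so the counts cover the histone RNA that this selection captured and not the whole pool.

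All 59 genes matched RefSeq by gene identifier, 50 on chromosome 6 and 9 on chromosome 1 (GRCh38.p14). The 250 bases before the start site could be read for 54 of them, 58 windows in all because some genes have 2 annotated starts. No window was given for H2AC12, H3C11, H3C12, H4C1 and H4C3. These windows were searched on both strands for 4 motifs known from histone promoters: the TATA box TATAAA, the CCAAT box CCAAT, the octamer ATTTGCAT bound by POU factors, and the H1 box AAACACA. None of the 4 contains another, and a TATA box can match both strands at 1 place.

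The motifs followed the histone class. All 6 H1 windows held the H1 box, against 4.82% of all 35116 RefSeq windows of this length and 0 windows of the other 4 classes. The octamer stood in 13 of 17 H2B windows and 10 of 14 H2A windows, against 1.63% of all windows, and in 1 of 11 H3, 0 of 10 H4 and 0 of 6 H1 windows. These counts are not independent. Windows of H2A and H2B genes that stand head to head cover largely the same bases, and some genes entered with more than 1 window. The H3 window with the octamer, of H3C4, is identical to that of H2AC7. The CCAAT box was in every H1, H2A, H2B and H3 window but in 2 of 10 H4 windows, against 32% of all windows, and the TATA box was in 37 of the 58 windows (63.8%), against 10.7%. A match is a run of letters and not a shown binding site.

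**Figure D1:**
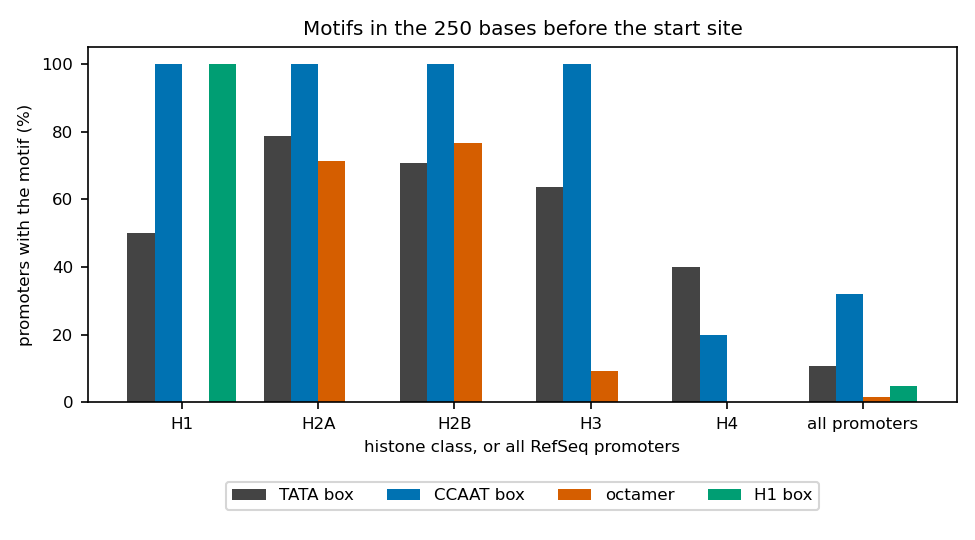
Share of promoter windows (vertical axis, %) that hold each of 4 motifs on either strand, for the 5 histone classes and for all RefSeq windows of 250 bases (horizontal axis). The H1 box bar stands at 100% in H1, the octamer bars are tall in H2A and H2B only, and the CCAAT bar drops to 20% in H4.

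6 windows are shown, written 5′ to 3′ on the gene's strand and ending at the base before the start site, with matches to the 4 motifs in capitals. They belong to H1-3 and H2BC7, the only genes of the set that passed the 2-fold call described below, to 1 gene of each other class, and to the H2B gene with the most counts. The H1-3 window lies at chr6:26234988-26235237 (minus strand), H2BC7 at chr6:26199266-26199515 (plus), H2AC11 at chr6:27132793-27133042 (plus), H3C2 at chr6:26032100-26032349 (minus), H4C5 at chr6:26204360-26204609 (plus) and H2BC12 at chr6:27146859-27147108 (minus).
H1-3: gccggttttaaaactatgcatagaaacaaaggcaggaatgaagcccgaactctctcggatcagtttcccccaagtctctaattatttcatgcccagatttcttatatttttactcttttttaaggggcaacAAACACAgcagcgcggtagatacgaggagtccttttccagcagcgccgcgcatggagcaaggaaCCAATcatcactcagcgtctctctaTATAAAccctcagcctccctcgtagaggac
H2BC7: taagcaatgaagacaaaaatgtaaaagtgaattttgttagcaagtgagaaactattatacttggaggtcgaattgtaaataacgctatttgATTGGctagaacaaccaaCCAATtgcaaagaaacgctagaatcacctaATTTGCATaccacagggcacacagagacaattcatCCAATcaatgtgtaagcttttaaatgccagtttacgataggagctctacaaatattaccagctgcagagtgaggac
H2AC11: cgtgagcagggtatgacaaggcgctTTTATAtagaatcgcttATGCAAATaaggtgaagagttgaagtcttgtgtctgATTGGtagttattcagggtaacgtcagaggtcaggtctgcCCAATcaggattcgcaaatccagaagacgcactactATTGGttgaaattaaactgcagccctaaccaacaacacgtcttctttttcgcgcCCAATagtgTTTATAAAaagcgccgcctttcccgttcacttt
H3C2: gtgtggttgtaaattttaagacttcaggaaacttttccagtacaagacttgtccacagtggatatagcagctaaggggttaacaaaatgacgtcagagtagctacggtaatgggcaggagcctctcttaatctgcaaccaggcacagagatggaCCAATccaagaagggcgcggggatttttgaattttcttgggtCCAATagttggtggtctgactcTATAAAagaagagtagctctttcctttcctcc
H4C5: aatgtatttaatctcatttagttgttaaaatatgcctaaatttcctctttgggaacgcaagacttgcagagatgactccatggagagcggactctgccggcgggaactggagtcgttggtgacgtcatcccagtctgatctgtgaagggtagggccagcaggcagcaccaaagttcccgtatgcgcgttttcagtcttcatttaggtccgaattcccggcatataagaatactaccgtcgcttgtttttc
H2BC12: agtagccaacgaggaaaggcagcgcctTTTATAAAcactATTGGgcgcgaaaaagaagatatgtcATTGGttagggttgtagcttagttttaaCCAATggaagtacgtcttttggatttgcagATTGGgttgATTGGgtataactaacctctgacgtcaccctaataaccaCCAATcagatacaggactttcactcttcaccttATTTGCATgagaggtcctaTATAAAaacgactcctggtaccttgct
The H1-3 window holds 1 H1 box, 1 CCAAT box and 1 TATA box, and the H2BC7 window holds the octamer and CCAAT boxes but no TATAAA. The H2AC11 window has matches on both strands, and it overlaps the window of H2BC11, which starts on the other strand. The H2BC7 and H2BC12 windows also hold matches on both strands. The H4C5 window holds none of the 4.

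Hypoxia was checked first on genes that respond to low oxygen. NDRG1, VEGFA and CA9 had log2 ratios of 1.32 (1.25 to 1.40), 0.65 (0.58 to 0.73) and 0.51 (0.38 to 0.65), and all 8 genes of the check list lay above 0. Total depth was 17643836 counts for the normoxia library and 18943320 for the hypoxia library. All 7 epithelial markers passed the low-count filter, with a summed CPM of 9404 in normoxia and 8509 in hypoxia and the lowest log2 ratio in KRT7, at -0.42 (-0.45 to -0.40). Of the 5 lung lineage markers 2 passed the filter, the factor NKX2-1 with 1356 and 1567 counts and NAPSA with 90 and 106. SFTPB (14 and 14 counts), SFTPC (4 and 2) and SFTPA1 (2 and 2) were below it. Of the other cell types, PTPRC and VWF, which define leukocytes and endothelium, each had 0 counts in normoxia and 2 in hypoxia. Summed leukocyte markers were at a CPM of 219 in normoxia and 221 in hypoxia, nearly all from CD68 (3849 and 4148 counts), endothelial markers at 5.82 and 5.51, and fibroblast markers, all 5 above the filter and led by COL1A1 (1579 and 1800 counts), at 115 and 119. COL3A1, a fibroblast collagen, had 25 and 60 counts, a log2 ratio of 1.17 (0.47 to 1.91), and was called higher. The part of these markers in the histone values was not tested.

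Histone genes were a small and uneven part of both libraries. Together the 59 genes took 9453 counts in normoxia and 11190 in hypoxia, 0.0536% and 0.0591% of all counts. After scaling with trimmed means (TMM), the summed counts gave a hypoxia to normoxia ratio of 1.11 (1.08 to 1.14), a log2 ratio of 0.15 (0.11 to 0.19). The linker histone gene H1-2 was the most counted, and without it the summed log2 ratio was 0.19 (0.15 to 0.24).

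Counts per library ran from 0 to 2491 (H1-2 in hypoxia). A scaled CPM of 1 in at least 1 library was reached by 33 of the 59 genes, and 10 others had 10 or more counts over both libraries. The remaining 16 had under 10, with at most 5 in a library. The filter fell between H1-4, kept at a highest CPM of 1.01, and H4C9, left out at 0.96. At the lower end, 6 genes had 0 counts in normoxia and 3 had 0 in hypoxia, none with more than 4 counts in the other library. A count of 0 allows up to 3 counts, a CPM of 0.169 in normoxia and 0.159 in hypoxia.

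**Figure D2:**
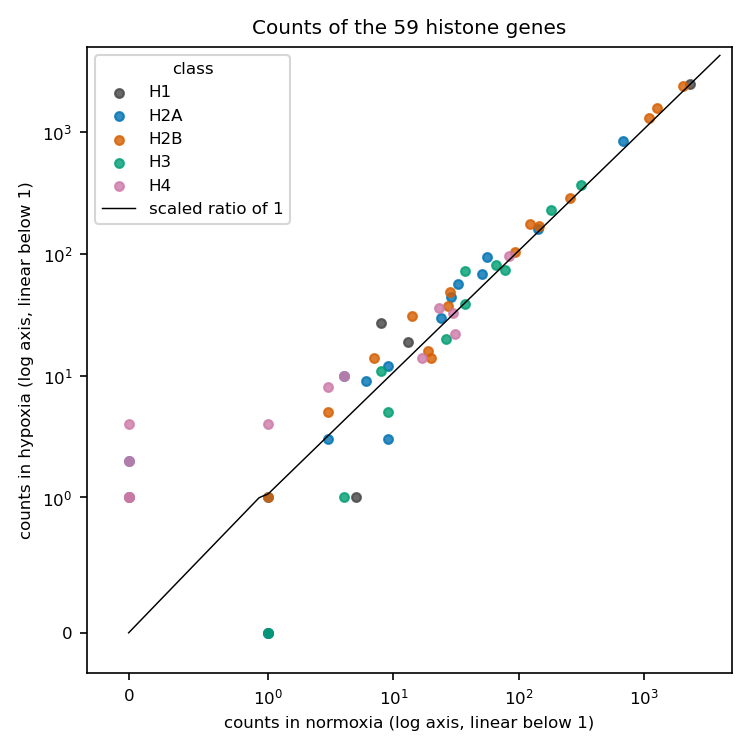
Counts of the 59 histone genes in normoxia (horizontal) and hypoxia (vertical), on log axes that are linear below 1 count, with colours for the class and a line for a scaled ratio of 1. The most counted genes (H1-2 with 2314 and 2491, H2BC12 with 2042 and 2405) lie close to the line, and most genes below 100 counts lie above it with a wider scatter.

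Per length, the levels were led by a few genes. In the authors' FPKM, H1-2 stood at 179 in normoxia and 180 in hypoxia, the H2B gene H2BC12 at 130 and 143, and the H2A gene H2AC6 at 73.7 and 85.7. H2BC5 followed at 53.9 and 62.9, H2BC21 at 27.7 and 30.8, and the highest H3 gene, H3C10, at 21.1 and 25.1. These are the top 6 in both libraries and in the same order. The highest H4 gene was H4C8 at an FPKM of 11.6 and 12.5. Among the genes kept, the lowest in normoxia was H1-3 at 0.584, with 1.84 in hypoxia, and the lowest in hypoxia was H4C15 at 0.654, with 0.639 in normoxia.

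**Figure D3:**
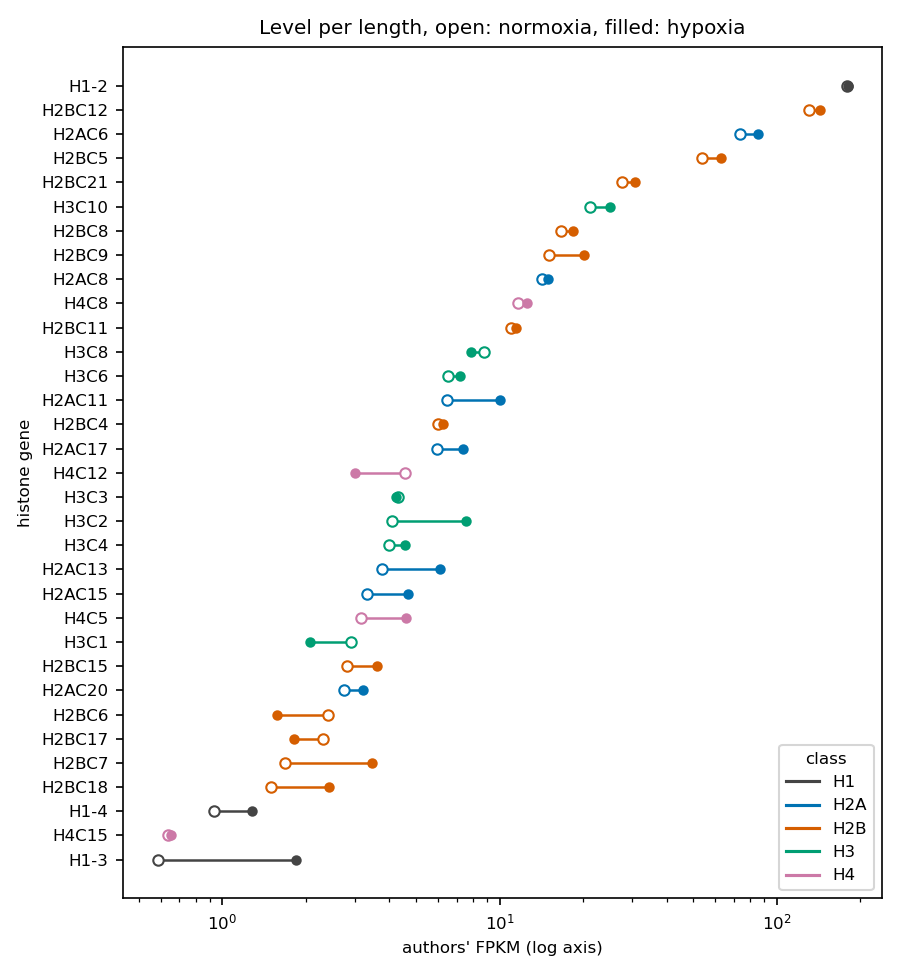
The authors' FPKM (log horizontal axis) of the 33 histone genes above the filter in normoxia (open) and hypoxia (filled), ordered by normoxia and coloured by class. H1-2 and H2BC12 lead at 179 and 130 in normoxia, and the widest gaps between the points belong to genes at low levels such as H1-3 and H2BC7.

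Summed over each class, the FPKM in normoxia and hypoxia were 273 and 308 for H2B, 181 and 183 for H1, 114 and 136 for H2A, 54.3 and 60.5 for H3, and 23.5 and 26.6 for H4. The 4 core histones are needed in equal numbers in the nucleosome, and their captured messages were not in equal amounts in either library. By counts, H2B took 54.2% of histone counts in normoxia (exact Clopper-Pearson 53.2 to 55.2) and 55.2% in hypoxia (54.3 to 56.1), while H4 took 2.04% (1.77 to 2.35) and 2.07% (1.82 to 2.35). H1 was 24.8% (23.9 to 25.6) in normoxia and 22.7% (21.9 to 23.5) in hypoxia.

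6 genes for which polyadenylated messages have been described (H1-2, H2AC6, H2BC4, H2BC5, H2BC12 and H2BC21) held 80.7% of histone counts in normoxia (79.9 to 81.5) and 79.5% in hypoxia (78.7 to 80.2). Their summed log2 ratio was 0.13 (0.08 to 0.17), from 7630 and 8895 counts. The other 53 genes had 1823 and 2295 counts and a log2 ratio of 0.24 (0.15 to 0.33). They include genes with long models, such as H3C6 (2700 bases, 311 and 369 counts) and H4C15 (2662 bases). Whether any of the 53 also give polyadenylated messages was not examined. The ratio of the other 53 was 1.08 times that of the 6 (1.01 to 1.16, counting error only), and no test over cultures of this difference could be made. H1-2, the most counted of the 6, had a ratio of 1.01, and the rest ran from 1.05 (H2BC4) to 1.17 (H2BC5). The comparison was not made without H1-2, so it is not a difference shown for the 6 as a group.

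The genes are now described by class, starting with the linker histones, which bind the DNA between nucleosomes. H1-2 had 2314 counts in normoxia and 2491 in hypoxia, a log2 ratio of 0.014 (-0.07 to 0.10), so that the most counted histone gene was nearly the same in both libraries. H1-3 (Entrez 3007, chromosome 6, 26234212 to 26234987) had 8 and 27 counts, a log2 ratio of 1.66 (0.48 to 3.01), the highest of the 33. H1-4 had 13 and 19, at 0.45 (-0.64 to 1.59). Both H1-3 and H1-4 passed the filter only through the hypoxia library. H1-5 had 5 and 1 counts, H1-1 had 1 and 0, and the testis-type H1-6 had 0 and 1. The summed H1 log2 ratio was 0.02 (-0.06 to 0.11), set almost wholly by H1-2. Without it the other 5 genes had 27 and 48 counts, at 0.74 (0.03 to 1.47), of which H1-3 gave 8 and 27.

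H2A genes, whose products pair with H2B, were higher in hypoxia as a sum, at 0.27 (0.15 to 0.38) on 1042 and 1336 counts, and all 7 that were kept lay above 0. H2AC6 gave most of these counts, with 675 and 843 and a log2 ratio of 0.23 (0.08 to 0.38). H2AC11 had 56 and 94 counts, at 0.65 (0.16 to 1.16), and H2AC13 had 33 and 57, at 0.70 (0.05 to 1.36). The intervals of these 3 excluded 0. For the other 4 they did not: H2AC15 had 29 and 44 counts (0.51, -0.20 to 1.24), H2AC17 had 51 and 68 (0.32, -0.22 to 0.88), H2AC20 had 24 and 30 (0.23, -0.59 to 1.07), and H2AC8 had 141 and 160 (0.09, -0.25 to 0.43). Among the genes with fewer counts, H2AC18 had 4 and 10, H2AC16 had 9 and 12, H2AC14 had 6 and 9, and H2AC21 went the other way with 9 and 3 (-1.68, -4.20 to 0.32). The remaining H2A genes, H2AC19, H2AC12, H2AC4 and H2AC7, had at most 3 counts in a library. Without H2AC6 the H2A sum was at 0.33 (0.14 to 0.53).

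H2B genes made up more than any other class. H2BC12 had 2042 counts in normoxia and 2405 in hypoxia, a log2 ratio of 0.14 (0.06 to 0.23). H2BC5 had 1256 and 1573, at 0.23 (0.12 to 0.34), and H2BC21 had 1087 and 1296, at 0.16 (0.04 to 0.28). These differences exceeded counting error and were small, at ratios of 1.10, 1.17 and 1.12 in the same order. H2BC9 had 123 and 176 counts, at 0.42 (0.08 to 0.77). H2BC7 (Entrez 8343, chromosome 6, 26199516 to 26199988) had 14 and 31, at 1.05 (0.10 to 2.08), and H2BC18 had 28 and 49, at 0.71 (0.02 to 1.44), an interval that ends next to 0. The intervals of the other 6 included 0. H2BC15 (27 and 37 counts) was at 0.36, H2BC8 (144 and 171) at 0.16, H2BC4 (256 and 287) at 0.07 and H2BC11 (93 and 104) at 0.07, while H2BC17 (19 and 16) was at -0.34 and H2BC6 (20 and 14) at -0.61. H2BC17 and H2BC6, the latter the lowest of all histone genes kept, passed the filter only through the normoxia library. Below the filter, H2BC13 had 7 and 14 counts, H2BC10 had 3 and 5, and H2BC14 had 1 and 1. The H2B sum was at 0.18 (0.12 to 0.23).

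H3 genes were split in direction. H3C2 had 37 counts in normoxia and 73 in hypoxia, a ratio of 1.85 (1.23 to 2.83) and a log2 ratio of 0.89, the only H3 gene kept whose interval excluded 0. H3C10 had 181 and 231, at 0.26 (-0.03 to 0.55), H3C6 had 311 and 369, at 0.15 (-0.07 to 0.38), and H3C4 had 66 and 81, at 0.20 (-0.28 to 0.69). H3C3 (37 and 39 counts) was at -0.02, H3C8 (77 and 74) at -0.15 and H3C1 (26 and 20) at -0.47, each with an interval that includes 0. Of the genes with fewer counts, H3C13 had 8 and 11 counts, H3C7 had 9 and 5, H3C12 had 4 and 1, and H3C11 had 1 and 0. The H3 sum was at 0.16 (0.02 to 0.30) on 757 and 904 counts.

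H4 genes had the fewest counts, 193 in normoxia and 232 in hypoxia, and their sum was at 0.17 (-0.11 to 0.46). H4C8 had 84 and 97 counts (0.11, -0.32 to 0.55) and H4C5 had 23 and 36 (0.55, -0.24 to 1.38). H4C15 had 30 and 33 (0.04, -0.71 to 0.81), and H4C12 had 31 and 22 (-0.59, -1.45 to 0.25). No H4 gene had an interval that excluded 0. H4C9 had 17 and 14 counts, H4C4 had 4 and 10, and H4C3 had 3 and 8. The other 5 (H4C1, H4C2, H4C6, H4C11 and H4C14) had 0 or 1 in normoxia and 1 to 4 in hypoxia.

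**Figure D4:**
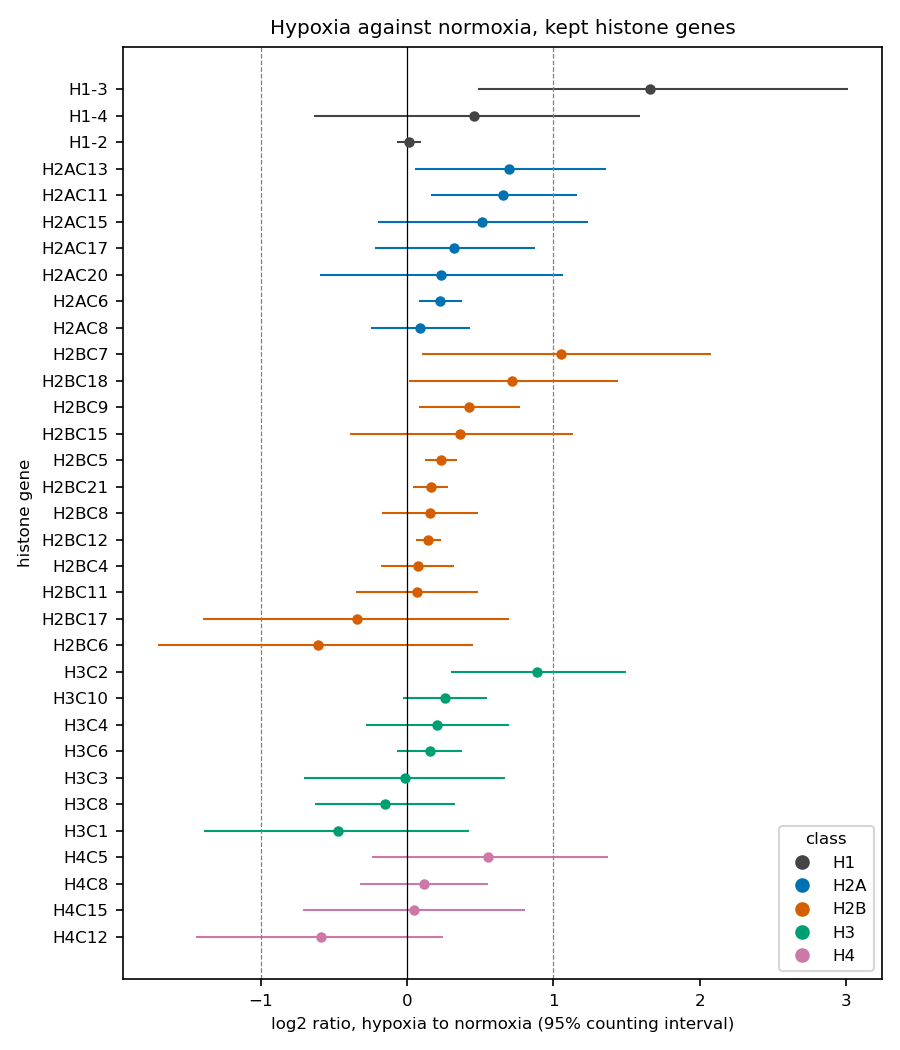
Log2 ratio of hypoxia to normoxia (horizontal axis) with its 95% counting interval for the 33 histone genes above the filter (vertical axis), coloured by class. Dashed lines mark a 2-fold difference, the solid line no difference. H1-3 and H2BC7 are the points beyond the right dashed line, and the intervals narrow for the most counted genes.

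Across the 33 genes kept, 2 were called higher (a ratio of 2 or more with an interval that excludes 1) and 0 lower, where 0.472% of all 12725 genes kept were called higher and 0.44% lower. Both calls, H1-3 and H2BC7, passed the filter only through the hypoxia library. Calls by size were more frequent among genes with few reads, 2.88% higher and 2.93% lower for a mean count under 100, and 22 of the 33 were in that range. The log2 ratio was over 0.5 for 8 of the 33, against 2.57% of all genes kept, and all 8 had a mean count under 100, a range in which 13.3% of genes were over 0.5. Intervals lay wholly above 0 for 11 of the 33 and wholly below for 0, where the shares for all genes kept were 15% above and 14% below. Split by depth, 6 of 22 histone genes with a mean count under 100 had an interval above 0, against 6.77% of all such genes, and 5 of 11 with a mean count of 100 or more, against 16.4%. A log2 ratio above 0 was seen in 27 of the 33 (50.7% of all genes kept), in 16 of the 22 with few reads (47.2%) and in 11 of the 11 with more (51.3%).

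The direction was read again under other selections of genes. A filter on the mean CPM still counts the higher library, and H2BC7 reached a mean of 1 only through hypoxia. Of the 29 histone genes with a mean CPM of 1 or more, 25 had a log2 ratio above 0, with a median of 0.20, where 50.7% of all such genes were above 0 and their median was 0.0031. Of the 50 read in both libraries, 36 lay above 0, with a median of 0.22, where the share for all genes read in both was 49.7%. All 11 with a mean count of 100 or more lay above 0, from 0.014 (H1-2) to 0.42 (H2BC9). Of the 10 genes below the filter with 10 or more counts, 7 lay above 0, and 0 had an interval that excluded 0.

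Histone genes are short, and short genes as a whole lay on the other side. For 51 of the 59, H1-3 (776 bases) and H2BC7 (473 bases) among them, the length that the authors' FPKM imply equals the RefSeq span, so the gene model has no intron. Among all 462 genes kept with an implied length under 1000 bases, the median log2 ratio was -0.06 and 29.2% lay above 0. After the trend with length was removed, the summed histone log2 ratio was 0.21, against 0.15 without this step. Within the histone genes, the 8 with an implied length of 850 bases or more had a summed log2 ratio of 0.17 (0.12 to 0.22), and the 51 shorter ones had 0.13 (0.07 to 0.19). The shorter sum leans on H1-2, which gave 2314 of its 4377 normoxia counts at a log2 ratio of 0.014. The medians of the genes kept ran the other way, at 0.16 for the 8 and 0.23 for the 25 shorter ones kept. No order by length is therefore shown.

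H2A and H2B genes often stand head to head and share a promoter. By the RefSeq positions there were 9 such pairs among the 54 genes whose strand was given, with 193 to 247 bases between their start sites. Genes without a strand could not be paired. H2AC12, which begins at 27147106, next to the end of H2BC12 at 27146858, is 1 of them. H2BC11 and H2AC11 had log2 ratios of 0.07 (-0.35 to 0.49) and 0.65 (0.16 to 1.16), H2BC4 and H2AC6 of 0.07 (-0.18 to 0.32) and 0.23 (0.08 to 0.38), and H2BC8 and H2AC8 of 0.16 and 0.09. H2BC21 and H2AC20 were at 0.16 and 0.23 although their counts differed widely (1087 and 24 in normoxia). H2BC13 and H2AC13 were at 0.91 and 0.70, and H2AC15 and H2BC15 at 0.51 and 0.36, while H2AC17 and H2BC17 were at 0.32 and -0.34. In the pair of H2AC7 and H2BC7, the H2B gene had 14 and 31 counts and the H2A gene 0 and 2, and in that of H2AC14 and H2BC14 the counts were 6 and 9, and 1 and 1. In each pair with intervals for both genes the intervals overlapped. Several are wide, such as that of H2BC14 (-6.39 to 6.20) and of H2BC17 (-1.40 to 0.70), so overlap cannot show that paired genes changed alike.

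Some values are uncertain because genes overlap or are near copies. The spans of 8 of the 59 overlap another RefSeq gene: H4C9 lies inside the span of H2BC12, H2AC7 inside that of H3C4 and H2AC19 inside that of H4C15, while H2BC5 and H2BC18 overlap genes outside this set. Without those 8 the summed log2 ratio was 0.13 and both calls remained. The promoter windows of H4C14 and H4C15 are identical over all 250 bases and those of H4C11 and H4C12 are identical at 98%, so their reads may not be told apart where the transcripts are as alike. Windows of H3C4 and H2AC7 are also identical, and those of H2AC13 and H2AC14 are identical at 82%. The transcripts themselves were not compared, so reads of other histone genes may be as hard to tell apart. 10 RefSeq genes with matching symbols, such as H3C14, were not analysed here.

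The clustered genes were set beside 20 listed histone genes outside the rule, most of them variants whose messages are polyadenylated and not tied to S phase. H2AW and H2BU1 on the list are replication-dependent genes of a smaller cluster, and H2AX can also give a stem-loop message. Of the 20, 14 were in the table and 12 passed the filter, with a median log2 ratio of -0.02 and a summed one of 0.0035 (-0.014 to 0.021). Of these, 0 were called, where the shares for all genes kept were 0.472% higher and 0.44% lower. H3-3B and H3-3A, both encoding H3.3, had 10629 and 12387 counts (0.13, 0.09 to 0.17) and 4357 and 4893 (0.07, 0.02 to 0.13). The linker variant H1-10, with 6523 and 6356 counts, was at -0.13 (-0.18 to -0.08). H2AZ1 was at -0.0062, H2AZ2 at 0.02, H2AX, which marks DNA breaks, at -0.03, H2AJ at -0.06, MACROH2A1 at -0.0032, and the centromeric CENPA at -0.11, each with an interval that includes 0, and the first 4 changed sign once the trend with gene length was removed. The extremes were H2AW at 0.21 (-0.19 to 0.61) and H3-5 at -0.74 (-1.74 to 0.23), which passed the filter only through the normoxia library. The ratio of the 59 clustered genes was 1.11 times that of this list (1.07 to 1.14, counting error only).

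The machinery that makes and trims histone messages differed little between the libraries. Of 22 genes of histone transcription and 3′ end processing, 0 were called (0.472% higher and 0.44% lower for all genes kept). An interval above 0 was seen for 0 and below for 1 (15% and 14% of all genes kept), and the median was -0.0039. NPAT, the coactivator of histone genes, had 358 and 383 counts (0.0047, -0.21 to 0.22, and -0.0051 with scaling by total counts), and CASP8AP2, which works beside it, had 204 and 236 (0.12, -0.16 to 0.39). SLBP, which binds the stem-loop, had 990 and 1001 (-0.08, -0.20 to 0.05). The U7 particle proteins LSM10 and LSM11 were at -0.08 (-0.28 to 0.12) and 0.18 (-0.12 to 0.48), the latter the highest of the list, and ZNF473 was at 0.03. The kinase CDK2, which with cyclin E activates NPAT, was at -0.17 (-0.28 to -0.06), CCNE1 at -0.16 (-0.38 to 0.07) and CCNE2, the lowest of the list, at -0.30 (-0.73 to 0.12).

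Of 16 genes of histone message decay and translation 0 were called, where 0.472% of all genes kept were called higher and 0.44% lower. Their median was -0.05, with 1 interval above 0 and 2 below. ERI1, the exonuclease that trims the stem-loop end, was at -0.17 (-0.30 to -0.04), and TUT7, which adds uridines to histone messages that are to be degraded, was highest at 0.19 (0.0015 to 0.38). MIF4GD, a partner of SLBP in translation, was lowest at -0.18 (-0.41 to 0.06). Of 29 listed histone chaperones 28 were in the table, with a median of 0.0054 (-0.0044 with scaling by total counts), 9 intervals above 0 and 3 below, where the shares for all genes kept were 15% and 14%. The replication-coupled chaperones CHAF1A and ASF1B were at -0.21 (-0.32 to -0.10) and -0.18 (-0.29 to -0.08), CHAF1B at -0.03 and NASP at -0.03, and CHAF1A was the lowest of the list. The highest was UBN2 at 0.41 (0.10 to 0.73), a subunit of the HIRA complex that deposits H3.3 outside replication.

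Most genes of S phase lay below 0. Of 32 listed genes 7 were above 0, with 0 intervals above and 13 below (50.7% above 0, 15% of intervals above and 14% below for all genes kept), a median of -0.10 and a summed log2 ratio of -0.09 (-0.11 to -0.08). E2F1, which drives entry into S phase, had 1084 counts in normoxia and 831 in hypoxia (-0.48, -0.61 to -0.34). E2F2 was lowest at -0.60 (-0.96 to -0.23). The list shares CCNE1 and CCNE2 with that of histone transcription.

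**Figure D5:**
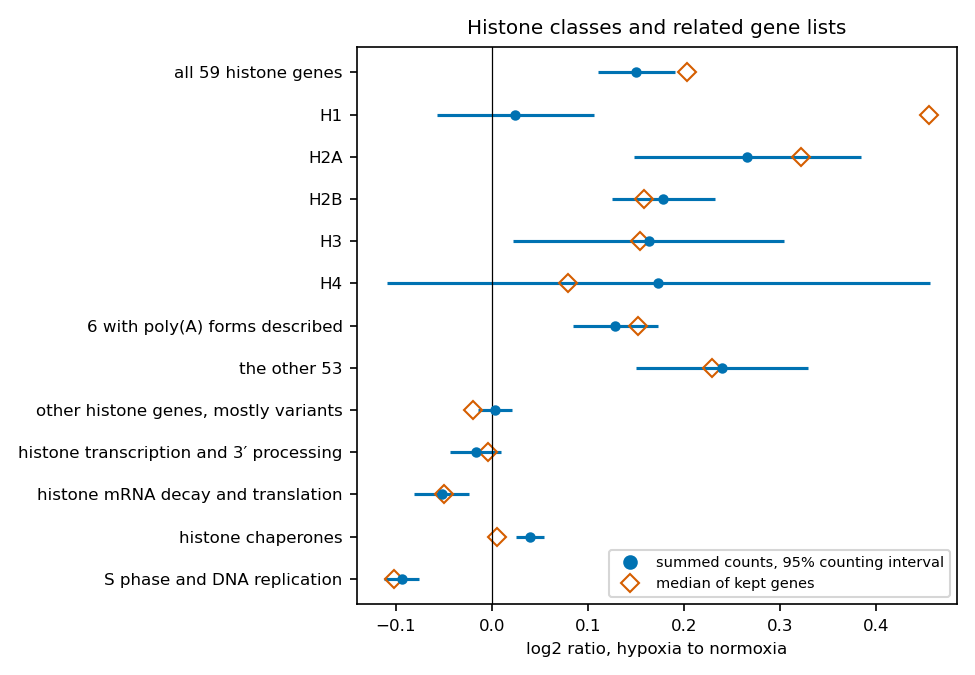
Log2 ratio of hypoxia to normoxia (horizontal axis) of summed counts (points, with 95% counting intervals) and the median of the kept genes (diamonds), for the 59 histone genes, their classes and related lists (vertical axis). The histone sum is at 0.15 and the S phase sum at -0.09. In H1 the sum is at 0.02 and the median of 3 genes at 0.45, but H1-3 and H1-4 passed the filter only through hypoxia. With a mean CPM of 1 or more, 1 H1 gene is left and the median is 0.014.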

How the data were processed

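RNA-seq was run on 1 library of H1975 cells in normoxia and 1 in hypoxia. RNA was extracted with TRIzol and libraries were made with a stranded mRNA kit, per the labels' protocols. Tools named in the submitters' processing notes are Trimmomatic, HISAT2, Cufflinks and HTSeq, with the build GRCh38. Their versions, and whether counting used strand, are not given in the sources used here. Read counts per gene were deposited by the authors, and so were FPKM, which equal the counts over the library total and a gene length, whole to 0.01 bases for 100% of genes that had reads.

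Counts were scaled by TMM (edgeR 4.0.16, R 4.3.3). Ratios carry exact conditional (Clopper-Pearson) 95% counting intervals (Python 3.11.15, scipy 1.17.1). 1 read equals a CPM of 0.0565 in normoxia and 0.0530 in hypoxia. Reads carry no molecular identifiers and are not independent molecules, so intervals and floors cover counting error only. Genes were kept where either library reached a CPM of 1, and called at a ratio of 2 or more either way with an interval that excludes 1. No p-value was computed, since there is 1 library per condition.

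All 33 histone genes kept, those below the filter with 10 or more counts, the extremes of each list and a fixed set were named, and the rest are given by their counts. The members and lists were chosen with earlier results of these data known. The sets by depth and length, the pairs, the motifs and the windows shown were chosen after values were seen. The calculation was tested on simulated data. Promoters are RefSeq's (GRCh38.p14). The small RNA libraries hold no histone gene and were not used. Alternatives were size factors from DESeq2 1.42.0, scaling by total counts or upper quartile, FPKM with a pseudocount of 1 or 0.1, other filters, a length trend removed (statsmodels 0.14.6) and a stricter call.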

Additional observations from a re-analysis of the deposited data

How the results depend on the processing

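No paired analysis was possible because each condition has 1 library. Scaling by DESeq2, by total counts or by upper quartile moved 0 of the 86 results followed, and 11 histone genes had an interval above 0, and 0 below, under each. A summed or single-gene value counted as moved when it left its counting interval, a list median when it moved by more than the half-width of the list's summed interval, and a number of calls when it changed by more than 1.5-fold. No value whose counting interval excluded 0 changed sign. Values near 0 did: H2AZ1 became 0.057, H2AX 0.017, H2AJ 0.0062, H2AZ2 -0.0091 and H3C3 0.049 with the length trend removed, NPAT ran from -0.047 to -0.0035 and the chaperone median from -0.0047 to -0.0042 with that trend removed, with total counts and with FPKM. The cause of a move was not tested, except that stricter filters and calls hold fewer genes.

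The 2 histone genes called higher became 0 with FPKM (pseudocount 1), 1 (H2BC7, through its hypoxia library) where the mean CPM had to reach 1, 0 where the CPM had to reach 5, and 0 where the interval had to lie beyond 1.5. Over all genes, the 60 called higher became 6 and 30 with FPKM (pseudocount 1 and 0.1), 100 unfiltered, 7 where the CPM had to reach 5 and 25 for intervals beyond 1.5. The 56 called lower became 1, 20, 104, 1 and 13 in the same order. The histone median of 0.20 became 0.16 with FPKM (pseudocount 1), 0.15 where the CPM had to reach 5 and 0.27 with the length trend removed. With that trend removed the histone sum was 0.21, the H2B sum 0.23, the median of the 6 genes with polyadenylated messages 0.20, that of the listed other histone genes -0.0014, H1-10 was -0.079 (from -0.13) and the hypoxia check calls (1) were 2. The median of the other histone genes was -0.044 unfiltered, the hypoxia check calls were 2 beyond 1.5, and the histone sum was 0.19 without H1-2. Leaving out overlapping genes was chosen after the data were seen. Leaving out a replicate was not possible with 1 library per condition.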
